A study of Rattus norvegicus with 15 samples.

Results

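The comparison described here set H9c2 cells given danshen injection and doxorubicin (DSI+DOX) against H9c2 cells given astaxanthin and doxorubicin (AXT+DOX), in 6 of the 15 libraries of an RNA sequencing study. The members were the 3 DSI+DOX and the 3 AXT+DOX libraries, and the genes tested were the 11002 of 19328 table entries with an FPKM (fragments per kilobase of transcript, scaled to library size) of 1 or more in at least 3 of these 6 libraries. At that limit, Mbd4 had a third-highest value of 1.00 FPKM and was tested, and Sfmbt2 had 0.999 FPKM and was not. All cells carry the genotype tag WT and are 1 cell line, H9c2, a rat line that came from embryonic heart tissue. The DSI+DOX cultures received 50 µL of danshen injection diluted 1 in 20, an extract of the root of Salvia miltiorrhiza, and the AXT+DOX cultures received 5 µM astaxanthin, a carotenoid. In both groups 2 µM doxorubicin was added 4 h later and the cells were collected 24 h after that, so the doxorubicin dose and time were the same. The level of doxorubicin inside the cells is not given in the sources used here. The other libraries were DMT+DOX (10 µM of an addition named DMT, same doxorubicin), DOX (2 µM doxorubicin without an addition) and con (phosphate-buffered saline). Neither preparation was given by itself, so what danshen injection or astaxanthin does to these cells alone was not measured, and the 2 preparations were given at 1 dose each with no common unit.

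Doxorubicin, an anthracycline, slides between DNA bases and holds topoisomerase II in its cleaved state, and the breaks that follow activate p53, which turns on genes of growth arrest, repair and death. It also loads cells with reactive oxygen species, against which the transcription factor NRF2 raises antioxidant enzymes, and it engages the integrated stress response, in which kinases phosphorylate the initiation factor eIF2 and the transcription factor ATF4 raises genes of amino acid supply. In myoblasts the muscle programme is set by the E-box factors MyoD and myogenin, and serum response factor and its cofactors drive actin and other contractile genes.

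H9c2 cells are labelled as cardiomyocytes, and most defining markers of that cell type were absent. Of 10 cardiomyocyte markers, 9 were in the table and 2 reached 1 FPKM in any of the 6 libraries, Tnnt2 and Gja1. Nppa was listed at 0 in all 6, and the highest value among Myh6, Myh7, Tnni3, Myl7, Ryr2 and Actn2 was 0.321 FPKM. Markers of skeletal myoblasts were present (5 of 7 in the table reached 1 FPKM), as were 4 of 8 fibroblast markers and 5 of 5 smooth muscle markers. The summed level of the cardiomyocyte markers was 140.5 to 219.5 FPKM in DSI+DOX libraries and 96.5 to 96.9 FPKM in AXT+DOX libraries, nearly all of it Tnnt2 and Gja1. The fibroblast sum overlapped, at 2424 to 2937 FPKM in DSI+DOX libraries and 2674 to 2910 FPKM in AXT+DOX libraries, and the endothelial sum was at most 0.446 FPKM in the 6 libraries. In bulk RNA, fewer cells of a type and less RNA per cell cannot be told apart.

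DSI+DOX replicate 3 stood apart from the other 5 libraries. Its log2(FPKM + 1) values correlated with those of DSI+DOX replicates 1 and 2 at r = 0.951 and 0.962 across genes, while DSI+DOX replicates 1 and 2 correlated at 0.995 and the AXT+DOX pairs at 0.991 to 0.996. Ribosomal protein genes held 9.86% of its FPKM sum, against 6.58% and 6.94% in the other DSI+DOX libraries and 5.76% to 6.52% in the AXT+DOX libraries. Against the mean of DSI+DOX replicates 1 and 2, 96 genes were more than 2-fold higher in it and 879 more than 2-fold lower. RNA quality was not given in the sources used here, and its part in the results was not tested. Every count below is therefore given with and without this library.

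With all 6 libraries, 1163 of 11002 genes were called between DSI+DOX and AXT+DOX, 10.6% of those tested. Of these, 275 (2.50%) were higher and 888 (8.07%) lower in DSI+DOX cells (limma on log2(FPKM + 1), a mean per group over all 15 libraries, Benjamini-Hochberg adjusted p under 0.05). Without DSI+DOX replicate 3 the call was made for 1318 genes (12%), 354 higher (3.22%) and 964 lower (8.76%), and 967 genes (8.79%) were called the same way in both, 230 higher (2.09%) and 737 lower (6.70%). Most differences were small on the log2(FPKM + 1) scale, where 681 of the 1163 were under 0.5 in size. On that scale 19 reached 1 in size, 9 higher and 10 lower, of which 5 did so in both fits. The scale shrinks the changes of low genes, so a gene could halve or double in FPKM and not be among the 19. The 3 DSI+DOX values all lay above the 3 AXT+DOX values for 799 genes (7.26%) and all below them for 2384 (21.7%), which is the background for the statements on overlap. The plot of fold changes with and without DSI+DOX replicate 3 shows both sets.

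The balance of direction depended on scaling. The median log2 difference of all genes was -0.11, and -0.05 without DSI+DOX replicate 3. After each library was scaled to the same median it was 0.04, and the calls became 442 higher and 312 lower, that is 58.6% higher in place of 23.6%. Quantile normalization gave 520 higher and 538 lower. In a fit of only the 6 libraries compared, limma called 0 genes, with 1448 at an unadjusted p under 0.05. The same fit without DSI+DOX replicate 3 called 376. The count also moved with the library left out: 4044 without DSI+DOX replicate 1, 265 without AXT+DOX replicate 2 and 241 without AXT+DOX replicate 3. For this reason a gene below is said to have held its call where limma called it in each of 6 fits. Each fit left out 1 of these libraries and kept the libraries of the other groups. A gene that held could therefore miss the threshold in a fit of only these groups. Smc4, for example, did so there without DSI+DOX replicate 3 (limma adjusted p = 0.0637).

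**Figure D1:**
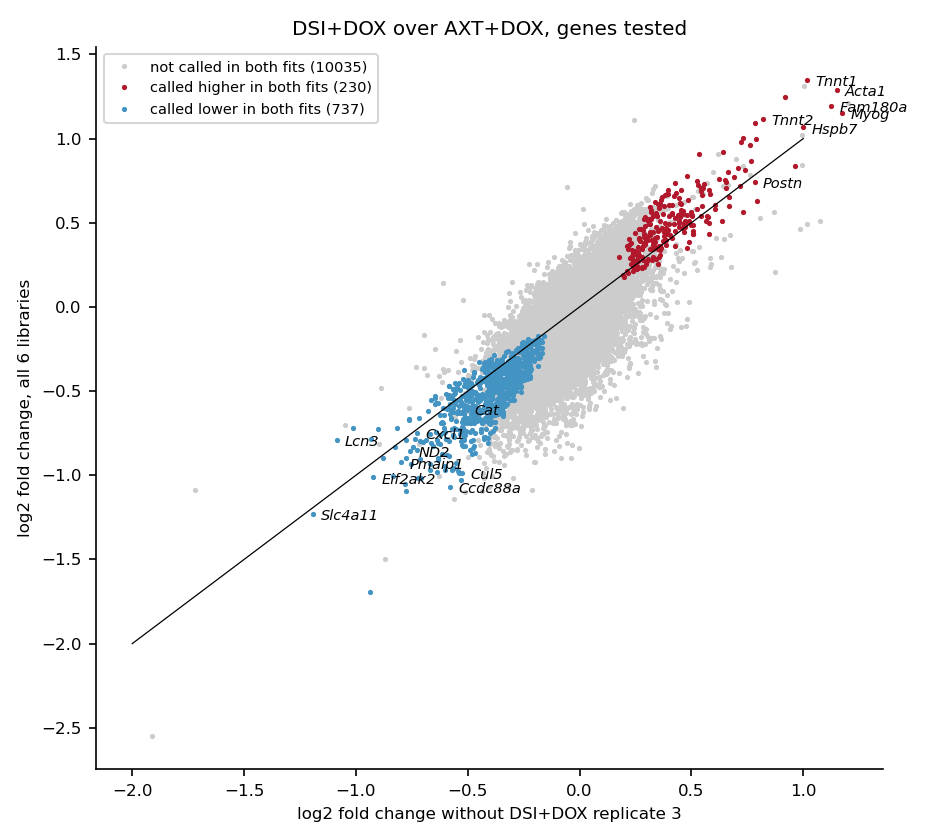
Each point is 1 of the genes tested, with its log2 fold change (DSI+DOX over AXT+DOX, on the log2(FPKM + 1) scale) without DSI+DOX replicate 3 on the horizontal axis and with all 6 libraries on the vertical axis; the line marks equal values. The 230 genes called higher in both fits are red and the 737 called lower in both are blue, and the muscle genes Tnnt1, Acta1 and Myog lie at the upper end while Slc4a11 lies at the lower end, close to the line.

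Genes of muscle differentiation and contraction were higher with danshen injection than with astaxanthin. Of 14 tested skeletal myogenesis genes, 11 rose and 0 fell, with a median log2 difference of 0.66 against -0.11 for all genes. Without DSI+DOX replicate 3, 11 rose and 0 fell with a median of 0.56, and 10 were called in both. The number called was 7 without AXT+DOX replicate 3 and otherwise up to 11, and it stayed at 11 after median scaling. Another 13 listed genes in the table lay under the 1 FPKM limit, Myh3, Ckm and Mymx among them.

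Myog, which encodes the differentiation factor myogenin, had 8.10, 6.04 and 6.68 FPKM in DSI+DOX libraries, against 2.97, 2.19 and 2.54 FPKM in AXT+DOX libraries. The groups did not overlap, and the separation did not rest on DSI+DOX replicate 3. The log2 difference was 1.15 ± 0.11 (SE; limma adjusted p = 2.75e-04), and 1.17 without that library, and the call held. The DOX group averaged 2.38 FPKM and the con group 93.9 FPKM, so Myog in DSI+DOX cells was far under its level in undrugged cells.

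Myogenin binds E-boxes, and its own promoter is shown here because Myog had the clearest rise of a muscle regulator. The 250 bases before its start (RefSeq, GRCr8, chr13:48297226-48297475, + strand) are written 5′ to 3′ in lower case. No letters are in capitals. On either strand this window lacked the E-box form CAGCTG, the CArG box that serum response factor binds and the other motifs searched. Other forms of the general E-box CANNTG were not searched, among them CAGTTG and CACATG, which this window holds unmarked.
Myog: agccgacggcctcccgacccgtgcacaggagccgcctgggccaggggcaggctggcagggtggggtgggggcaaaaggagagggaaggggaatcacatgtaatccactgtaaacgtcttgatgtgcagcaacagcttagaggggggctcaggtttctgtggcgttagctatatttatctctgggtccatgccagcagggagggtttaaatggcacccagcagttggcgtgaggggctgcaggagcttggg
Of 10 skeletal myogenesis genes with a promoter in the table, 4 held CAGCTG in that window, against 11.6% of the 8914 promoters of genes tested here. These 10 include members called and not called, so the count does not bear on the difference between the groups.

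Contractile genes were higher too, with more spread. Acta1, skeletal muscle alpha-actin, had 4.08, 4.60 and 6.13 FPKM in DSI+DOX libraries, against 1.40, 1.21 and 1.62 FPKM in AXT+DOX libraries (log2 difference 1.29 ± 0.12, limma adjusted p = 2.25e-04). Tnnt1, slow skeletal troponin T, had 3.59, 4.80 and 9.32 FPKM in DSI+DOX libraries, against 1.04, 2.01 and 1.71 FPKM in AXT+DOX libraries. Neither gene overlapped between the groups, and DSI+DOX replicate 3 was the highest library for both. The log2 difference of Tnnt1 was 1.35 ± 0.23 (limma adjusted p = 0.00537) and was 1.02 without that library. Tnnc2, fast skeletal troponin C, had 11.7, 12.3 and 24.6 FPKM in DSI+DOX libraries, against 6.79, 5.62 and 5.28 FPKM in AXT+DOX libraries. Its log2 difference was 1.25 with DSI+DOX replicate 3 and 0.92 without it. The DOX group averaged 2.77 FPKM for Tnnt1 and 7.55 FPKM for Tnnc2, between the means of the groups compared. The DMT+DOX group averaged 5.27 FPKM for Tnnt1 and 20.3 FPKM for Tnnc2. Tnnt3, Lmod3 (an actin filament nucleator of the sarcomere) and Cdh15 (M-cadherin of myoblasts) rose by 0.60, 0.67 and 0.38. All of these held their calls.

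Some muscle calls rested on single libraries. Mylpf, Des and Klhl41 were called with all libraries and without DSI+DOX replicate 3, and lost the call without AXT+DOX replicate 3 (limma adjusted p = 0.0646, 0.0873 and 0.0870). Mymk, the myomaker needed for myoblast fusion, was called with DSI+DOX replicate 3 (limma adjusted p = 0.0452) and not without it (0.0802). Myod1 had 22.8, 23.5 and 18.5 FPKM in DSI+DOX libraries, against 20.4, 17.6 and 16.4 FPKM in AXT+DOX libraries. These ranges overlap, and Myod1 was called without DSI+DOX replicate 3 (log2 difference 0.34, limma adjusted p = 0.0117) and not with it (0.24, 0.102).

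**Figure D2:**
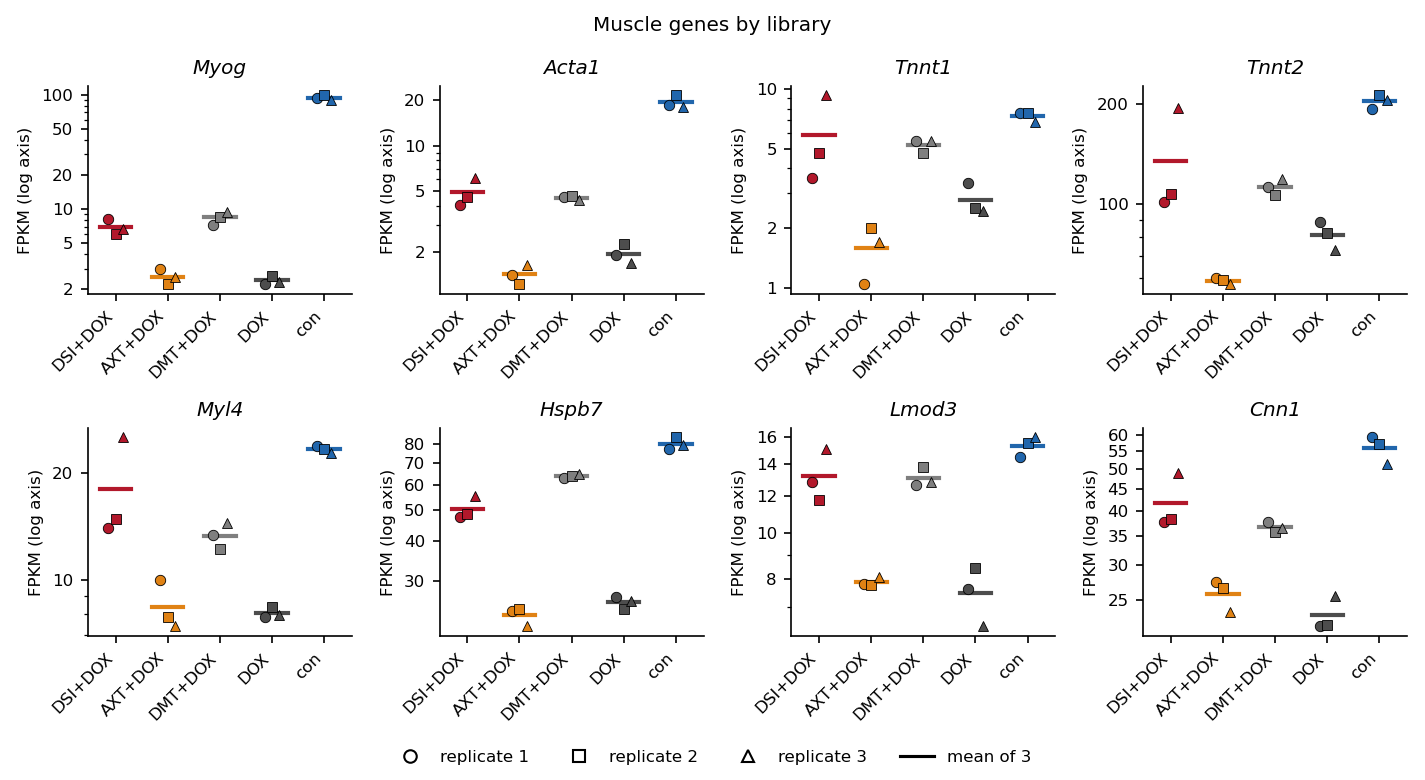
FPKM on a log axis of 8 muscle genes in each library of the 5 groups, with symbols for the replicates and a bar for the mean of 3. In every panel the 3 DSI+DOX libraries lie above the 3 AXT+DOX libraries, with DSI+DOX replicate 3 the highest of its group for 7 of the 8 genes, Myog being the exception, and the con libraries of Myog and Acta1 lie far above both groups.

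Among 9 tested cardiac muscle genes, 4 rose and 1 fell (median log2 difference 0.45), and without DSI+DOX replicate 3, 4 rose and 0 fell (0.31). Tnnt2, cardiac troponin T, which is also made by immature skeletal muscle, had 102, 108 and 195 FPKM in DSI+DOX libraries. In AXT+DOX libraries it had 60.0, 59.2 and 57.5 FPKM, while the DOX group averaged 81.2 FPKM and the DMT+DOX group 113 FPKM. Hspb7, a small heat shock protein of heart and muscle, had 47.5, 48.6 and 55.4 FPKM in DSI+DOX libraries, against 24.3, 24.7 and 21.7 FPKM in AXT+DOX libraries. Both genes separated the groups completely, and Hspb7 varied little within each. The log2 difference was 1.12 ± 0.18 for Tnnt2 (limma adjusted p = 0.00401; 0.82 without DSI+DOX replicate 3) and 1.07 ± 0.07 for Hspb7 (4.15e-06; 1.00 without it). Myl4, the atrial and embryonic essential myosin light chain, rose by 0.98, and these 3 held. Hand2 (0.45) and Gata4 (-0.32), both cardiac transcription factors, lost the call without DSI+DOX replicate 3 (limma adjusted p = 0.0521 and 0.0731). Xirp1, an actin-binding protein of intercalated discs, rose by 0.60 and held. Ankrd1, a stretch-responsive ankyrin repeat protein, rose by 0.28, but was called in 3 of 6 leave-out fits, and after quantile normalization its difference was -0.05.

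All 5 smooth muscle markers rose, with and without DSI+DOX replicate 3 (median log2 difference 0.43 and 0.34). Acta2, smooth muscle alpha-actin, had 2691, 2837 and 3084 FPKM in DSI+DOX libraries, against 2048, 1869 and 1841 FPKM in AXT+DOX libraries. Cnn1, calponin, had 37.9, 38.4 and 49.0 FPKM in DSI+DOX libraries, against 27.5, 26.6 and 23.4 FPKM in AXT+DOX libraries. The groups did not overlap for either gene, and both held their calls, with log2 differences of 0.58 ± 0.08 and 0.67 ± 0.10 (limma adjusted p = 0.00268 and 0.00344). Tagln (0.43), Smtn (0.37) and Myh11 (0.36) lost the call without AXT+DOX replicate 2 (limma adjusted p = 0.0990, 0.0857 and 0.0682) or replicate 3. The summed level of the 5 markers was 3968 to 4862 FPKM in DSI+DOX libraries and 2862 to 3205 FPKM in AXT+DOX libraries.

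The promoter of Acta2 is shown because all 3 smooth muscle markers with a promoter in the table held CAGCTG in the 250 bases before the start. It is from RefSeq (GRCr8, chr1:241172504-241172753, - strand), 5′ to 3′, with the CAGCTG match in capitals. The match says only that the letters are there, and no binding was measured. The CArG box was searched only in the strict form CCWWWWWWGG (W is A or T), with 0 matches here. Looser forms were not searched, such as CCCTATATGG and CCTTGTTTGG, which this window holds unmarked.
Acta2: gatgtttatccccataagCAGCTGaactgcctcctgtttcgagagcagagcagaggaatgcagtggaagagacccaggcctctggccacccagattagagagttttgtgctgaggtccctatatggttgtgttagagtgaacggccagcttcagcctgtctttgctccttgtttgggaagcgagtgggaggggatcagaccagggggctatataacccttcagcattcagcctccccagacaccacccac

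Some targets of p53 were lower with danshen injection than with astaxanthin. Of 21 tested targets of arrest and feedback, 0 rose and 10 fell (median log2 difference -0.34), against 8.07% of all genes called lower. Without DSI+DOX replicate 3 the same 10 fell (median -0.19). After median scaling 4 were called lower, and the count ranged over 7 to 13 as single libraries were left out, 7 being without AXT+DOX replicate 2. Plk2, a polo-like kinase induced by p53, had 76.0, 71.9 and 63.3 FPKM in DSI+DOX libraries, against 103, 109 and 112 FPKM in AXT+DOX libraries. Mdm2, the ubiquitin ligase that degrades p53 in a feedback loop, had 194, 181 and 144 FPKM in DSI+DOX libraries, against 234, 254 and 258 FPKM in AXT+DOX libraries. For both genes the highest DSI+DOX library lay under the lowest AXT+DOX library. The log2 difference was -0.62 ± 0.06 for Plk2 (limma adjusted p = 3.56e-04) and -0.53 ± 0.09 for Mdm2 (0.00600).

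Polh, the translesion DNA polymerase eta, had 6.10, 6.62 and 4.05 FPKM in DSI+DOX libraries, against 10.7, 12.4 and 11.2 FPKM in AXT+DOX libraries (log2 difference -0.93 ± 0.13, limma adjusted p = 0.00223; -0.75 without DSI+DOX replicate 3). Gadd45a, a growth arrest and DNA damage gene, had 97.9, 98.8 and 113 FPKM in DSI+DOX libraries, against 150.3, 159.7 and 152.8 FPKM in AXT+DOX libraries (-0.58 ± 0.09, 0.00366). Gtse1, which restrains p53 in G2, fell by 0.61. None of these genes overlapped between the groups. Plk2, Mdm2, Polh, Gadd45a, Gtse1, Ppm1d (a phosphatase that switches p53 signalling off) and Ei24 held their calls. After median scaling, Gadd45a, Ppm1d and Ei24 missed the threshold (adjusted p = 0.0583, 0.0699 and 0.0917). Btg2, Sesn2 and Ccng1 fell with and without DSI+DOX replicate 3 but lost the call without AXT+DOX replicate 2 (adjusted p = 0.0511, 0.0573 and 0.0577).

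Cdkn1a, the p53 target that encodes the cell cycle inhibitor p21, did not pass the test. It had 265, 279 and 277 FPKM in DSI+DOX libraries, against 330.5, 303 and 289.6 FPKM in AXT+DOX libraries, and 289.6 FPKM on average with doxorubicin alone. The log2 difference was -0.17 (limma adjusted p = 0.0815), and it was 0.01 after median scaling. Fas, a p53-induced death receptor, had a log2 difference of -0.01 (limma adjusted p = 0.903).

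Of 11 tested p53 targets of death signalling, 3 fell and 0 rose with and without DSI+DOX replicate 3 (median log2 difference -0.17 and -0.15), and all 3 held. The count was 5 without DSI+DOX replicate 1 and 2 after median scaling. Pmaip1, the BH3-only protein NOXA, had 61.2, 56.7 and 45.3 FPKM in DSI+DOX libraries, against 92.6, 107 and 111 FPKM in AXT+DOX libraries (log2 difference -0.92 ± 0.11, limma adjusted p = 9.38e-04). The lowest AXT+DOX library was well above the highest DSI+DOX library. Phlda1 and the nuclease gene Aen fell by 0.47 and 0.35; after median scaling Aen missed the threshold (adjusted p = 0.157). Among 24 genes of the BCL2 family and caspases, 4 fell and 0 rose (4 and 1 without DSI+DOX replicate 3). They were Pmaip1, Casp12 (-0.67), Birc2 (-0.40) and Casp4 (-0.33), and of these Pmaip1 held in all leave-out fits. The count was 2 without AXT+DOX replicate 2.

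**Figure D3:**
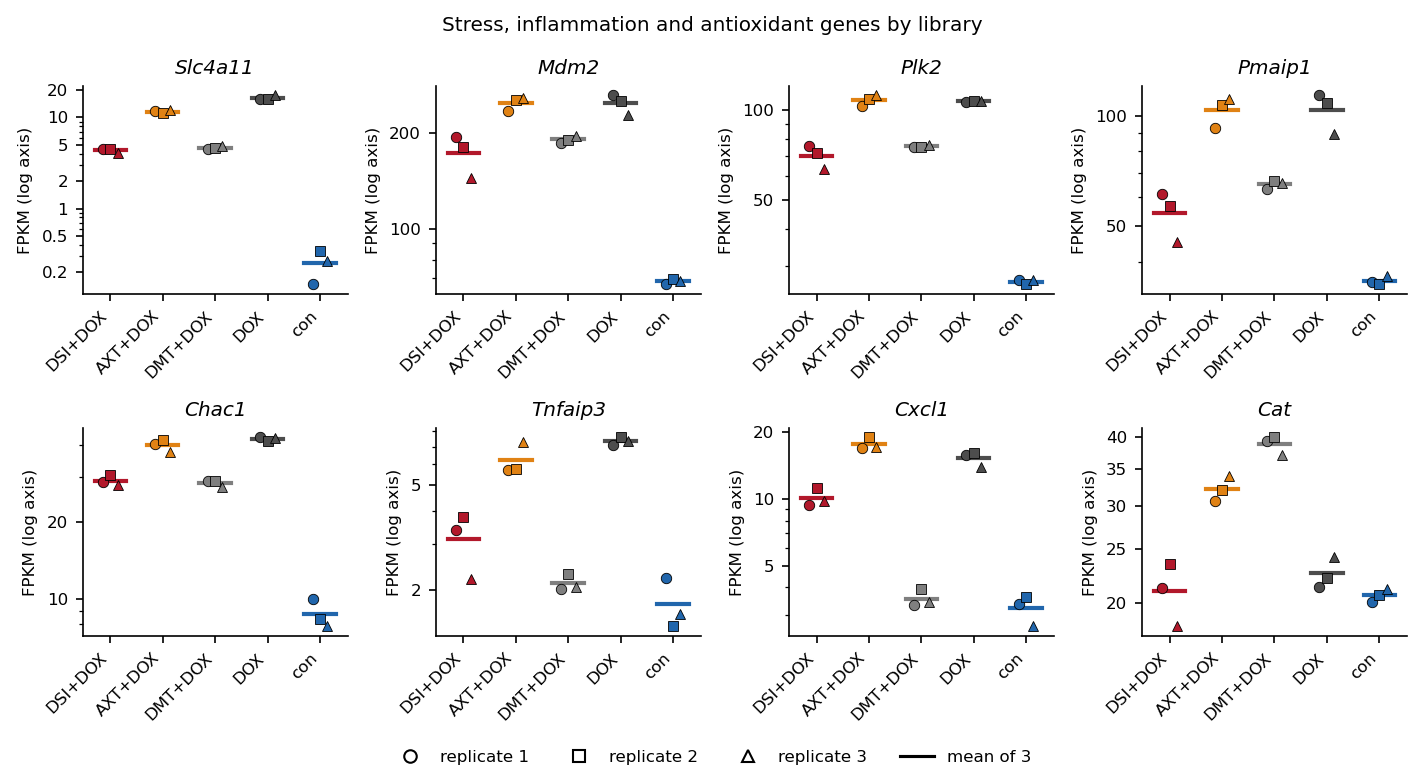
FPKM on a log axis of 8 genes in each library of the 5 groups, with symbols for the replicates and a bar for the mean of 3. The genes are Slc4a11, which is outside the lists, and members of p53, stress, inflammatory and antioxidant lists. In every panel the 3 DSI+DOX libraries lie under the 3 AXT+DOX libraries; Slc4a11 is near 0.254 FPKM in con libraries, and Cat in DSI+DOX libraries is near its level in DOX and con libraries.

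Some genes of the integrated stress response were also lower with danshen injection. Of 33 tested, 0 rose and 13 fell (median log2 difference -0.22), and without DSI+DOX replicate 3, 18 fell (-0.20). The 13 were among the 18. The number was 3 after median scaling and 6 without AXT+DOX replicate 2. Chac1, which degrades glutathione, had 28.7, 30.4 and 28.0 FPKM in DSI+DOX libraries, against 40.4, 41.6 and 37.4 FPKM in AXT+DOX libraries (log2 difference -0.44 ± 0.08, limma adjusted p = 0.00600). Slc3a2, the heavy chain of amino acid exchangers, had 228, 238 and 255 FPKM in DSI+DOX libraries, against 323, 299 and 287 FPKM in AXT+DOX libraries (-0.33 ± 0.06, 0.00811). Neither gene overlapped between the groups. Chac1, Slc3a2, its partner Slc7a5 (-0.34), the glycine transporter Slc6a9 (-0.45) and the tryptophanyl-tRNA synthetase Wars1 (-0.40) held. After median scaling Chac1, Slc3a2 and Slc7a5 missed the threshold (adjusted p = 0.0713, 0.279 and 0.0978).

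The calls of Ddit3 and Atf4, regulators of this response, depended on DSI+DOX replicate 3. Ddit3, the transcription factor CHOP, had 71.6, 74.2 and 129 FPKM in DSI+DOX libraries, against 124, 117 and 111 FPKM in AXT+DOX libraries. DSI+DOX replicate 3 lay above all AXT+DOX libraries, while replicates 1 and 2 lay under them. The log2 difference was -0.41 (limma adjusted p = 0.124) with all libraries and -0.68 (7.18e-04) without that library. Atf4 had 155, 161 and 177 FPKM in DSI+DOX libraries, against 188, 181 and 177 FPKM in AXT+DOX libraries, and passed the test without DSI+DOX replicate 3 (adjusted p = 0.0405) and not with it (0.136). Trib3, a pseudokinase that restrains ATF4 and CHOP, had 42.8, 42.2 and 50.8 FPKM in DSI+DOX libraries, against 64.9, 58.7 and 54.6 FPKM in AXT+DOX libraries (-0.39, adjusted p = 0.0187), and lost the call without AXT+DOX replicate 1 (0.0515) or 2 (0.0670).

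ATF4 binds composite elements that can be written TGATGNAA. This motif was in 5 of 30 promoters of the tested list, against 1.60% of the promoters of genes tested here. The count covers members called and not called, so it does not bear on the difference between the groups. Trib3 is shown as one of the 5. Its promoter is from RefSeq (GRCr8, chr3:161275534-161275783, - strand), 5′ to 3′, with the reverse complement of the motif in capitals.
Trib3: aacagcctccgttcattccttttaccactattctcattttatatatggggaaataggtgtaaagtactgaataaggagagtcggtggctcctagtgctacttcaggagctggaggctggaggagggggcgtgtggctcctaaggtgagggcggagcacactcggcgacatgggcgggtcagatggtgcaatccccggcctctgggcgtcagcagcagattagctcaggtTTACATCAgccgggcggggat

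The unfolded protein response of the endoplasmic reticulum moved little. Of 23 genes, 2 rose and 1 fell, with and without DSI+DOX replicate 3 (median log2 difference 0.00 and -0.01). The chaperone gene Hspa5 fell by 0.20 and Sdf2l1 rose by 0.36, and neither held in all leave-out fits. Without DSI+DOX replicate 1, 4 rose and 7 fell, and without AXT+DOX replicate 2, 0 were called. Of 15 heat shock protein genes, 3 rose and 2 fell (2 and 1 without DSI+DOX replicate 3, and 0 without AXT+DOX replicate 2). Hspb1 had 439.6, 483 and 860 FPKM in DSI+DOX libraries, against 371, 330.4 and 294 FPKM in AXT+DOX libraries. Its log2 difference was 0.78 with DSI+DOX replicate 3, the highest library, and 0.48 without it, and it lost the call without AXT+DOX replicate 2 or 3 (limma adjusted p = 0.0738 and 0.101).

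Some feedback genes of NF-kB, the transcription factor of inflammatory signalling, and some of its cytokine targets were lower with danshen injection. Of 15 tested NF-kB subunit and feedback genes, 0 rose and 5 fell with and without DSI+DOX replicate 3 (median log2 difference -0.19 and -0.18), 4 of them in both. The count was 1 after median scaling and 1 without AXT+DOX replicate 2. Tnfaip3, which encodes the deubiquitinase A20 that ends NF-kB signalling, had 3.39, 3.79 and 2.21 FPKM in DSI+DOX libraries, against 5.71, 5.78 and 7.30 FPKM in AXT+DOX libraries. The groups did not overlap, the log2 difference was -0.83 ± 0.14 (limma adjusted p = 0.00565; -0.66 without DSI+DOX replicate 3), and the call held. The inhibitors Nfkbia (-0.33) and Nfkbie (-0.35) lost the call when any AXT+DOX library was left out.

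The promoter of Tnfaip3 is shown because kappa-B sites stood in 7 of 13 promoters of this list, against 4.12% of the promoters of genes tested here. That count too covers members called and not called, and does not bear on the difference between the groups. It is from RefSeq (GRCr8, chr1:15543980-15544229, - strand), 5′ to 3′, with 3 matches to the kappa-B site in capitals.
Tnfaip3: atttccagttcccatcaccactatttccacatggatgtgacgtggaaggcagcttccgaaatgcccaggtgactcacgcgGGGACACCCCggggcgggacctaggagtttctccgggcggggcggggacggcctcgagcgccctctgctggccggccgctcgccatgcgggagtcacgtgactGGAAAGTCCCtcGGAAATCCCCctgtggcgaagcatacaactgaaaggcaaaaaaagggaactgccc

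Of 12 tested inflammatory cytokine and chemokine genes, 4 fell and 0 rose with and without DSI+DOX replicate 3 (median log2 difference -0.30 and -0.20), and 1 was called after median scaling and 2 without AXT+DOX replicate 1. Cxcl1, a neutrophil chemokine, had 9.43, 11.2 and 9.86 FPKM in DSI+DOX libraries, against 17.0, 19.0 and 17.1 FPKM in AXT+DOX libraries. It separated the groups without overlap (log2 difference -0.75 ± 0.10, limma adjusted p = 0.00223) and its call held. Icam1, an adhesion molecule, fell by 0.43 and held, though not after median scaling (adjusted p = 0.0565). Lif (-0.57) and Cxcl16 (-0.33) did not hold in all leave-out fits. Kappa-B sites were in 3 of 9 promoters of this list, counted over members called and not called.

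Of 19 interferon response genes, 1 rose and 2 fell (1 and 4 without DSI+DOX replicate 3, and 2 and 0 after median scaling). The shares of all genes were 2.50% called higher and 8.07% lower (3.22% and 8.76% without that library). Tap1, the peptide transporter of antigen presentation, fell by 0.44 and held, though not after median scaling (adjusted p = 0.0680). Eif2ak2, which encodes the double-stranded RNA sensor kinase PKR and was not on that list, had 39.6, 36.4 and 31.4 FPKM in DSI+DOX libraries, against 62.5, 76.3 and 81.4 FPKM in AXT+DOX libraries. The groups lay far apart, with a log2 difference of -1.01 ± 0.10 (limma adjusted p = 3.41e-04), and the call held. The DOX group averaged 63.6 FPKM and the con group 29.3 FPKM. Of 24 immediate early genes, 0 rose and 6 fell (0 and 5 without DSI+DOX replicate 3; median -0.24 and -0.14), with 2 called after median scaling and 2 without AXT+DOX replicate 3. Klf10, a zinc finger factor induced by TGF-beta, fell by 0.64 and held. Egr1 (-0.44) and Fos (-0.47) fell without holding.

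Genes that answer to NRF2 split in both directions. Of 30 tested, 3 rose and 5 fell (3 and 6 without DSI+DOX replicate 3, and 5 and 2 after median scaling), and the median log2 difference was 0.05 (-0.01 without it). The number called higher was 8 without DSI+DOX replicate 1 and 1 without AXT+DOX replicate 1. Srxn1, sulfiredoxin, which repairs peroxiredoxins, had 5.51, 5.90 and 3.51 FPKM in DSI+DOX libraries, against 9.66, 9.35 and 9.02 FPKM in AXT+DOX libraries (-0.82 ± 0.16, limma adjusted p = 0.00933). Mgst1, a microsomal glutathione transferase, had 33.4, 36.9 and 39.5 FPKM in DSI+DOX libraries, against 26.7, 25.6 and 24.3 FPKM in AXT+DOX libraries (0.50 ± 0.08, 0.00374). Srxn1 was thus lower and Mgst1 higher with danshen injection, both without overlap. The autophagy receptor Sqstm1 (-0.36) and Nfe2l2, the gene of NRF2 itself (-0.32), also fell, and these 4 held. After median scaling Sqstm1 and Nfe2l2 missed the threshold (adjusted p = 0.159 and 0.177). The NRF2 targets Txnrd1 (-0.47) and Gclc (-0.43) were called lower with and without DSI+DOX replicate 3, but neither held in all leave-out fits. The targets Hmox1 and Nqo1 did not pass. Hmox1, heme oxygenase 1, had 100.3, 102 and 101 FPKM in DSI+DOX libraries, against 123, 112 and 113 FPKM in AXT+DOX libraries (adjusted p = 0.0606), and Nqo1 had a log2 difference of 0.17 (adjusted p = 0.131).

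Catalase, which breaks down hydrogen peroxide, was lower with danshen injection than with astaxanthin. Its gene Cat had 21.3, 23.6 and 18.1 FPKM in DSI+DOX libraries, against 30.7, 32.0 and 34.0 FPKM in AXT+DOX libraries. The groups did not overlap, the log2 difference was -0.60 ± 0.09 (limma adjusted p = 0.00268), and the call held. The DOX group averaged 22.6 FPKM and the con group 20.6 FPKM, both inside or near the range of the DSI+DOX libraries. Over 23 antioxidant enzymes, 2 rose and 2 fell (1 and 2 without DSI+DOX replicate 3), and 13 rose when DSI+DOX replicate 1 was left out. With all 6 libraries, 2.50% of all genes were called higher and 8.07% lower. Prdx2, a peroxiredoxin, rose by 0.44 and Txnrd2, mitochondrial thioredoxin reductase, fell by 0.35, and neither held.

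Astaxanthin is a carotenoid, and genes of retinoid and carotenoid handling were listed for that reason. Of 13 tested, 0 rose and 1 fell, beside 2.50% of all genes called higher and 8.07% called lower. Without DSI+DOX replicate 3, 1 rose and 3 fell, beside 3.22% and 8.76% of all genes. Cyp26b1, which degrades retinoic acid, had 1.44, 1.505 and 1.14 FPKM in DSI+DOX libraries, against 2.33, 3.35 and 2.74 FPKM in AXT+DOX libraries (log2 difference -0.69 ± 0.11, limma adjusted p = 0.00374). All 3 AXT+DOX libraries were above all 3 DSI+DOX libraries, and the DOX group averaged 1.41 FPKM. The call held. Dhrs3, a retinaldehyde reductase, was called lower without DSI+DOX replicate 3 (-0.36, adjusted p = 0.0244) and not with it (0.0981). Of 7 genes of the aryl hydrocarbon receptor and its targets, 2 fell and 0 rose in both fits: Nfe2l2, which is shared with the NRF2 list, and the receptor gene Ahr (-0.72). Cyp1b1, a target of that receptor, was not called (limma adjusted p = 0.185). Of 10 ABC drug transporters, Abcb1a, the doxorubicin exporter P-glycoprotein, and the cholesterol exporter Abca1 fell with and without DSI+DOX replicate 3, by 0.63 and 0.62 with it. Neither was called without AXT+DOX replicate 2 (limma adjusted p = 0.0996 and 0.0630).

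Some cell cycle genes were higher with danshen injection than with astaxanthin, while the list medians moved little. Of 45 mitosis genes, 7 rose and 3 fell (9 and 3 without DSI+DOX replicate 3). Over all genes, 2.50% were called higher and 8.07% lower (3.22% and 8.76% without that library). The median log2 difference of the mitosis genes was -0.06 (0.02 without that library). The number called higher was 2 without AXT+DOX replicate 2. The number called lower was 11 without DSI+DOX replicate 1, and after median scaling 11 rose and 2 fell. Cdk1, the mitotic kinase, had 29.0, 32.5 and 37.0 FPKM in DSI+DOX libraries, against 22.8, 22.1 and 21.9 FPKM in AXT+DOX libraries (0.53 ± 0.08, limma adjusted p = 0.00297). The con group averaged 57.0 FPKM. Ube2c, the ubiquitin-conjugating enzyme of mitotic exit, rose by 0.55, and both held. Smc4, a condensin subunit, had 7.57, 7.88 and 6.08 FPKM in DSI+DOX libraries, against 10.1, 13.5 and 16.7 FPKM in AXT+DOX libraries (-0.80 ± 0.14, adjusted p = 0.00547), and held, although the AXT+DOX libraries themselves spread widely.

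Of 37 DNA replication genes, 4 rose and 1 fell (4 and 3 without DSI+DOX replicate 3), and 1 rose without AXT+DOX replicate 2. Ccne1, cyclin E1, rose by 0.47 and held. Ccne2, cyclin E2, went the other way (-0.45, limma adjusted p = 0.0435) and was called in 3 of 6 leave-out fits. Top2a, the proliferation-linked target of doxorubicin, had 13.1, 11.2 and 6.92 FPKM in DSI+DOX libraries, against 9.88, 12.1 and 12.8 FPKM in AXT+DOX libraries. These ranges overlap, and the difference was -0.18 (limma adjusted p = 0.444) with DSI+DOX replicate 3 and 0.07 (0.714) without it. Of 19 genes of homologous recombination and the Fanconi pathway, 2 fell and 0 rose, beside 8.07% of all genes called lower. Without DSI+DOX replicate 3, 1 fell and 0 rose, beside 8.76% called lower, and 0 were called without AXT+DOX replicate 2.

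In energy and lipid metabolism, the called genes of glycolysis were higher with danshen injection. Of 20 glycolysis genes, 4 rose and 0 fell (4 and 1 without DSI+DOX replicate 3; median log2 difference 0.15 and 0.10), with 2 called higher without AXT+DOX replicate 2 and 9 without DSI+DOX replicate 1. Eno3, the muscle enolase, had 19.2, 20.5 and 30.7 FPKM in DSI+DOX libraries, against 12.3, 11.3 and 10.4 FPKM in AXT+DOX libraries (0.96 ± 0.14, limma adjusted p = 0.00297). Pfkm, the muscle phosphofructokinase, had 38.0, 39.6 and 39.0 FPKM in DSI+DOX libraries, against 29.1, 26.8 and 27.2 FPKM in AXT+DOX libraries (0.47 ± 0.06, 0.00153). Both are muscle isoforms, neither overlapped between the groups, and both held. Of 33 cholesterol synthesis genes, 2 rose and 0 fell, and 7 rose without DSI+DOX replicate 3, Fdps and Fdft1 being the 2 called in both, and 0 rose without AXT+DOX replicate 2. Of 22 genes of fatty acid oxidation and PPAR targets, limma called 0 in either fit, and 4 higher and 5 lower without DSI+DOX replicate 1.

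Large sets of housekeeping genes followed DSI+DOX replicate 3. Of 38 cytosolic ribosomal protein genes, 4 rose and 0 fell, with a median log2 difference of 0.47 that was 0.19 without that library, where 5 rose. The median member was 0.82 higher on the log2 scale in DSI+DOX replicate 3 than in the mean of the other DSI+DOX libraries. All 38 were called higher without DSI+DOX replicate 1 and 0 without AXT+DOX replicate 2. Of 52 nuclear genes of oxidative phosphorylation, 1 rose (median 0.31, and 0.09 without DSI+DOX replicate 3), and 35 were called without DSI+DOX replicate 1. Of 30 proteasome subunits, 2 rose (1 without DSI+DOX replicate 3), and 17 when DSI+DOX replicate 1 was left out. Ribosomal protein genes have many near-identical copies, so their values are uncertain.

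The 13 protein-coding genes of mitochondrial DNA were all tested, and none rose. ND2, a complex I subunit, had 1705, 1701 and 1386 FPKM in DSI+DOX libraries, against 2628, 2808 and 3238 FPKM in AXT+DOX libraries. The lowest AXT+DOX value was far above the highest DSI+DOX value, and the log2 difference was -0.86 ± 0.11 (limma adjusted p = 0.00113; -0.76 without DSI+DOX replicate 3). ND4 fell by 0.52 and was the only other of the 13 called, in both fits, though not after median scaling (adjusted p = 0.0924) or without AXT+DOX replicate 2 or 3 (0.0675 and 0.104). ND1, another complex I subunit, was not called (-0.22, adjusted p = 0.0969). Mitochondrially encoded RNA as a whole made up 10.3%, 9.79% and 7.56% of the FPKM sum in DSI+DOX libraries and 10.1%, 10.7% and 11.5% in AXT+DOX libraries.

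Extracellular matrix and TGF-beta genes moved in both directions. Of 26 metalloproteinases and inhibitors, 3 rose and 2 fell (5 and 2 without DSI+DOX replicate 3). Mmp2, gelatinase A, rose by 0.51 and the urokinase receptor Plaur by 0.47, while Mmp15 fell by 0.53 and the plasminogen activator Plat by 0.44; these 4 held, and Plat missed the threshold after median scaling (adjusted p = 0.0622). Of 21 matricellular genes, 2 rose and 0 fell (3 and 1 without DSI+DOX replicate 3). Postn, periostin, had 6.75, 6.32 and 5.91 FPKM in DSI+DOX libraries, against 2.76, 3.97 and 3.50 FPKM in AXT+DOX libraries, without overlap (0.74 ± 0.11, limma adjusted p = 0.00297), and held. The DOX group averaged 9.26 FPKM, above both. Of 28 collagens and their enzymes, 4 rose and 2 fell with and without DSI+DOX replicate 3, 3 and 2 of them in both (6 and 2 after median scaling), Loxl2 with the largest change (-0.85; -0.49 without DSI+DOX replicate 3), and none held: without AXT+DOX replicate 2, 0 were called. Of 29 TGF-beta and BMP genes, 4 rose and 3 fell (5 and 4 without DSI+DOX replicate 3, 5 and 12 when DSI+DOX replicate 1 was left out, and 6 and 1 after median scaling); Acta2 and Cnn1, given above as smooth muscle genes, rose, and Id2, a dominant negative partner of E-box factors, fell by 0.64 and held.

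Of 13 circadian clock genes, 5 fell and 0 rose with and without DSI+DOX replicate 3, 4 of them in both, with 2 called after median scaling and 1 without AXT+DOX replicate 2. Nr1d1, the clock repressor REV-ERB alpha, had 11.99, 11.4 and 11.5 FPKM in DSI+DOX libraries, against 15.6, 15.6 and 16.5 FPKM in AXT+DOX libraries (-0.42 ± 0.08, limma adjusted p = 0.00684) and held, though not after median scaling (adjusted p = 0.0690). Nr1d2 (-0.57) and Bhlhe40 (-0.60) fell without holding. Of 36 autophagy and lysosome genes, 3 fell and 0 rose in both fits, Sqstm1 and Atg12 among them, a share near the 8.07% of all genes called lower, with 0 called after median scaling and 1 without AXT+DOX replicate 2. Of 18 genes of ferroptosis and iron, 1 fell (2 without DSI+DOX replicate 3), Acsl4, and of 7 muscle atrophy genes, 1 fell in both fits, Fbxo30, and neither gene was called without AXT+DOX replicate 2 (limma adjusted p = 0.114 and 0.120). Of 2 tested histone genes, 0 were called, and 2 fell without DSI+DOX replicate 3.

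**Figure D4:**
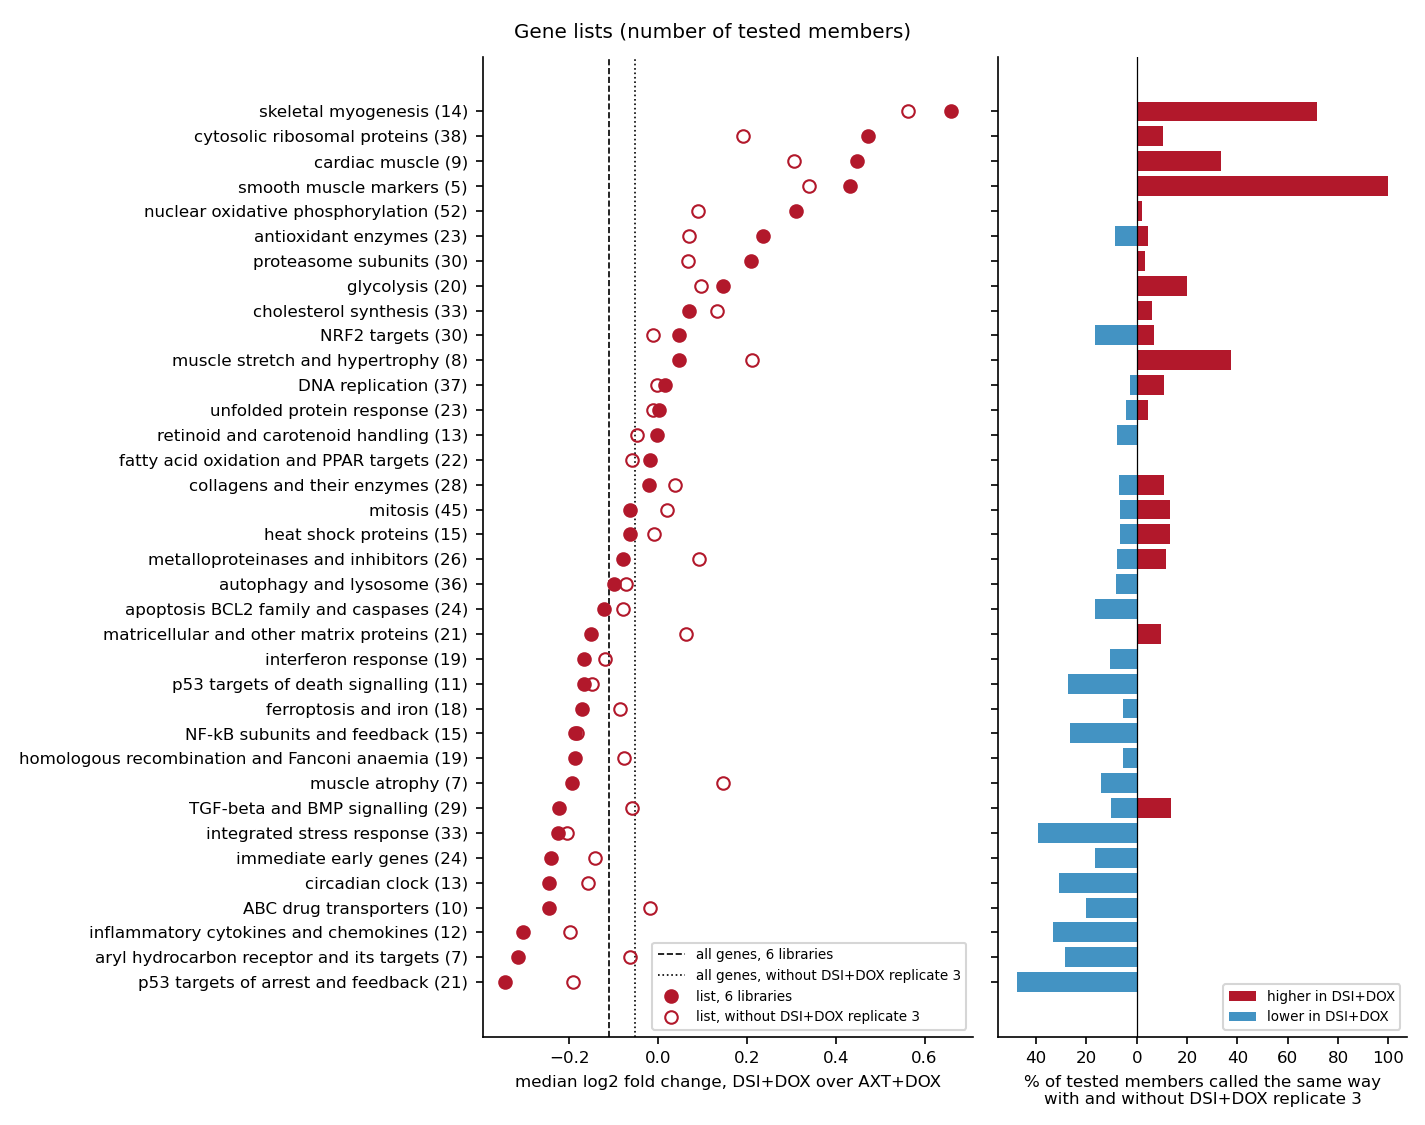
The left panel gives for each list, with its number of tested members, the median log2 fold change (DSI+DOX over AXT+DOX) with all 6 libraries (filled) and without DSI+DOX replicate 3 (open), beside the medians of all genes (-0.11, dashed, and -0.05, dotted). The right panel gives the percentage of tested members called higher (red) or lower (blue) both with and without that library; smooth muscle and skeletal myogenesis lists lie at the upper end and p53 arrest targets at the lower end.

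Outside these lists, a wide difference was that of Slc4a11, a membrane transporter of the bicarbonate transporter family. It had 4.53, 4.48 and 4.11 FPKM in DSI+DOX libraries, against 11.7, 11.1 and 11.9 FPKM in AXT+DOX libraries. Both groups were tight and far apart, with a log2 difference of -1.23 ± 0.08 (limma adjusted p = 4.15e-06; -1.19 without DSI+DOX replicate 3). The DOX group averaged 16.3 FPKM and the con group 0.254 FPKM. Lcn3, a lipocalin gene, had 14.4, 16.9 and 29.8 FPKM in DSI+DOX libraries, against 35.2, 34.0 and 33.4 FPKM in AXT+DOX libraries. Its difference of -0.79 was called in the full fit (adjusted p = 0.0428) and without DSI+DOX replicate 3 (-1.09, 0.00137), but in none of the other 5 leave-out fits and not after median scaling (0.131).

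The 12 rises named here are the largest among genes called with and without DSI+DOX replicate 3, without overlap and averaging 5 FPKM or more in the higher group, so that Acta1, at 4.94 FPKM in DSI+DOX cells, is not one of them. They included 4 genes on none of the lists that held their calls. Fam180a had 22.2, 24.3 and 27.0 FPKM in DSI+DOX libraries, against 9.83, 9.85 and 10.7 FPKM in AXT+DOX libraries (1.19 ± 0.08, limma adjusted p = 4.15e-06). S100a4, a calcium-binding protein of motile cells, had 249, 281 and 468 FPKM in DSI+DOX libraries, against 177, 154 and 148 FPKM in AXT+DOX libraries. Jsrp1, a protein of the junctional sarcoplasmic reticulum of skeletal muscle, rose by 1.09. Adprhl1, a heart-enriched ADP-ribosylhydrolase family member, rose by 1.00. The DSI+DOX libraries of Fam180a were close together, whereas for S100a4 and Jsrp1 replicate 3 was by far the highest. Without that library the difference was 1.12 for Fam180a, 0.73 for S100a4 and 0.78 for Jsrp1. Gip was the last of the 12 and lost its call without AXT+DOX replicate 2 or 3.

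A matching 12 falls were named within the same limits, and in most of them DSI+DOX replicate 3 was the lowest library by a wide margin. Apart from Slc4a11 and Eif2ak2, the 12 were Ccdc88a, 1 entry of Phf20l1, Resf1, Cul5, Eea1, Trim7, LOC691170, Ranbp2, Pik3c2a and Synpo, and each of these 10 lost its call in 1 or more leave-out fits. Ccdc88a, which encodes the actin regulator girdin, had 5.53, 5.14 and 1.29 FPKM in DSI+DOX libraries, against 6.34, 8.80 and 10.8 FPKM in AXT+DOX libraries. DSI+DOX replicate 3 was far under the rest, and the log2 difference of -1.07 was -0.58 without it. Cul5, a cullin scaffold of ubiquitin ligases, had 11.3, 9.72 and 3.42 FPKM in DSI+DOX libraries, against 12.9, 16.7 and 17.4 FPKM in AXT+DOX libraries (-0.98, and -0.52 without that library). After median scaling neither gene passed the threshold (adjusted p = 0.0605 and 0.0550). In a fit of only these groups without DSI+DOX replicate 3, 11 of these 12 rises and 5 of these 12 falls were called.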

How the data were processed

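H9c2 RNA was sequenced in 15 samples, 3 per group. The authors deposited FPKM values, with a column for each library, per the file headers. The submitters' processing notes list Trimmomatic, HISAT2, featureCounts and Rnor_6.0; how counts became FPKM is not given in the sources used here. A search for whole-read steps failed (at best 0.676% of 1036 low genes shared a ratio). Depth is therefore unknown, and neither counting intervals nor count models were used. Whether replicates were separate cultures is not stated, so the spread that the p-values measure may be technical.

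After removal of 16 exact duplicates from 19344 entries, 1315 had no symbol, 2 symbols were dates and 446 entries shared a symbol. Group means were estimated on log2(FPKM + 1) with limma 3.58.1 (R 4.3.3; trended empirical Bayes, 15 libraries, 10 residual degrees of freedom, two-sided), with Benjamini-Hochberg adjustment over all 11002 genes, and again without DSI+DOX replicate 3. The scale understates the change of low genes. Simulated data were used to check the fit. With 3 against 3, an exact permutation test cannot go below p = 0.1 and was not used.

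The 37 gene lists, 7 marker lists and the members were chosen with earlier results of these data known. Genes were named by rule, 104 in all: up to 12 rises and 12 falls called in both fits, without overlap and averaging 5 FPKM or more in the higher group; up to 3 members of lists with 3 or more calls; and fixed genes of doxorubicin action. Other genes given with values were chosen after those were seen, and 1 gene that the rule takes is not reported here. The mitochondrially encoded genes were matched by the table's own symbols. Settings tried besides were a pseudocount of 0.1, other filters (5 FPKM, none, over 15 libraries), median scaling, quantile normalization, a fit of only these groups, no trend, a replicate block, array weights, a minimum of 2-fold, and leaving out each library. Motifs were searched on both strands in the 250 bases before the start of RefSeq promoters (GRCr8), matched by symbol. Near-identical, overlapping and antisense genes may share reads. Plots were made in Python 3.11.15 with matplotlib 3.10.9.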

Additional observations from a re-analysis of the deposited data

How the results depend on the processing

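The count of called genes (1163; 1318 without DSI+DOX replicate 3) depended on the libraries and the scaling. It was 754 after median scaling, 8019 with array weights, and 0 with only the groups compared (376 without DSI+DOX replicate 3). A minimum log2(FPKM + 1) difference of 1 in size left 19, and leaving out single libraries gave 241 to 4044. Without DSI+DOX replicate 3, median scaling gave 1078. The other settings gave 912 to 1184. The causes were not tested. With the replicate number as a block the count was 722, and 814 without DSI+DOX replicate 3. The numbers did not pair the samples: deviations of same-numbered samples correlated at -0.553 to 0.533, and between DSI+DOX and AXT+DOX at -0.553, 0.148 and -0.542.

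Of the 104 named genes, 23 lost the call after median scaling, 92 with only the groups compared, 45 without AXT+DOX replicate 2 and 44 without AXT+DOX replicate 3, and 3 without DSI+DOX replicate 3; 45 of the 92 called held it in all 6 leave-out fits. The sign changed for Ankrd1 after quantile normalization (-0.051, adjusted p = 0.836) and for Cdkn1a after median scaling (0.00669, 0.965). Top2a ran over -0.35 to 0.068 as single libraries were left out. It was 0.0012 after quantile normalization, 0.068 without DSI+DOX replicate 3, with or without the other groups in the fit (0.714 and 0.767), and 0.15 (0.332) with median scaling added. Cyp1b1 was 0.047 (0.663) with median scaling and without that library. Depth is unknown, so the precision of low genes could not be set.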

Other observations

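Several gene families were taken whole by symbol and chosen after their values were seen, so their counts are only descriptive. Over all genes tested, 2.50% were called higher and 8.07% lower (3.22% and 8.76% without DSI+DOX replicate 3). Of 5 tested troponin genes, 4 were called higher in DSI+DOX than in AXT+DOX cells and 5 without DSI+DOX replicate 3. The 4 were given above as muscle genes. Of 13 glutathione transferases, 6 were called higher and 0 lower (5 and 0 without DSI+DOX replicate 3), and of 9 annexins, 3 and 0 in both fits. For 9 S100 genes the counts were 2 and 0, and for 6 sarcoplasmic reticulum and caveolar genes 4 and 0, in both fits. Mitochondrial ribosomal protein genes numbered 71, with 0 higher and 1 lower (0 and 2 without DSI+DOX replicate 3). Ubiquitin-specific peptidases numbered 43, with 0 and 9 (1 and 5), and centrosomal Cep genes 31, with 0 and 9 (0 and 7). After median scaling the counts were 1 and 2 for the peptidases and 0 and 2 for the Cep genes. They were then 1 and 0 for the S100 genes, 5 and 0 for the glutathione transferases and 0 and 0 for the mitochondrial ribosomal protein genes. The median peptidase was itself 0.59 lower on the log2 scale in DSI+DOX replicate 3 than in the other DSI+DOX libraries. Anxa8 had 7.82, 7.78 and 9.28 FPKM in DSI+DOX libraries, against 4.82, 3.80 and 4.23 FPKM in AXT+DOX libraries (log2 difference 0.81, limma adjusted p = 5.34e-04). The DOX group averaged 8.28 FPKM, inside the DSI+DOX range, and the con group 4.50 FPKM, inside the AXT+DOX range.

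Of 6 SMC genes, whose products form the ring complexes of chromosome cohesion, condensation and repair, 5 were called lower and 0 higher in DSI+DOX cells, with and without DSI+DOX replicate 3, and 4 after median scaling. Smc3, a cohesin subunit, had 20.8, 19.3 and 13.3 FPKM in DSI+DOX libraries, against 26.5, 33.0 and 33.5 FPKM in AXT+DOX libraries (-0.78, adjusted p = 0.00516). Of 184 Zfp zinc finger genes, 34 were lower and 0 higher (33 and 0 without that library), and 13 lower after median scaling. The median Zfp gene was itself 0.36 lower on the log2 scale in DSI+DOX replicate 3 than in the other DSI+DOX libraries.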
